A study of Mus musculus with 5 samples.

Results

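Interferon-stimulated genes are the genes that a cell switches on when it senses interferon, a secreted signal of infection and of tissue damage. The 9 genes described here are Ifi27l2a, Ifitm2, Ifitm3, Bst2, Isg15, Ifit1, Ifit3, Irf7 and Ly6e. They were taken by symbol from the 5 deposited expression tables. Of the 9, 8 were listed in all 5 tables and belong to the 13711 genes that the tables share. Ifit1 was listed in the tables of both day 3 sections and of MI day 7 replicate 1, and it was not listed in the other 2 tables. The list was chosen with measured values in view: Ifi27l2a was selected on its mean level in each section, because its difference between infarcted and sham hearts depended on the day. Its section values are therefore given as a description with no test.

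The sections were transverse slices of mouse hearts, measured with the Visium platform, which captures RNA on a grid of barcoded spots that can each hold several cells. The study's text names no strain or genotype for these hearts, and gives C57BL/6 for the mice of its other heart operations. Surgery was done on postnatal day 1 and was either ligation of the left anterior descending artery, which causes myocardial infarction (MI), or a sham operation, and hearts were taken 3 or 7 days later at a level 200 µm below the suture or its equivalent. Day 3 was covered by a single section of each operation, and day 7 by 1 section after sham and 2 after MI (replicates 1 and 2), with 3364 spots in all. The study's text calls the 2 MI sections of day 7 biologically independent. Every value below is a mean over spots of CPM, a gene's count per 1000000 of the spot's total over the shared genes, and the section, never the spot, was the replicate.

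Type I interferons bind the receptor formed by Ifnar1 and Ifnar2, and the kinases Jak1 and Tyk2 then pass the signal to a transcription factor complex that contains Irf9. This complex binds the interferon-stimulated response element in the promoters of target genes. Interferon gamma acts through Ifngr1 and Ifngr2, and promoters that respond to it can hold the gamma-activated site. Of the 9 genes, Irf7 encodes a transcription factor that amplifies interferon production. Isg15 encodes a ubiquitin-like modifier, and Ifit1 and Ifit3 encode proteins of the family that binds foreign RNA ends. Bst2 (tetherin) holds budding virus particles at the cell surface, and Ifitm2 and Ifitm3 are membrane proteins that hinder virus entry. Ly6e encodes a lipid-anchored surface protein, and Ifi27l2a encodes a small interferon-induced protein.

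RefSeq promoters (GRCm38.p6), running from 250 bases before to 50 bases after the start of the gene, were found for 7 of the 9 genes. Ifi27l2a and Ly6e had none in the table used. The motif searched for the response element was GAAANNGAAA on either strand. It was present in 6 of the 7 promoters, with Irf7 the exception, against 3.99% of 27025 genes with a promoter. The windows below show these matches in capitals, each printed 5′ to 3′ on the strand of the gene and with positions counted from its RefSeq start. On the opposite strand a match reads TTTCNNTTTC.
Isg15, chr4:156200869-156200978, minus strand, from -160 to -51: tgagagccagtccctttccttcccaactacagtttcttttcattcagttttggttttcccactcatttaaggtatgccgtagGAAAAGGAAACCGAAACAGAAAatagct
Bst2, chr8:71537523-71537632, minus strand, from -160 to -51: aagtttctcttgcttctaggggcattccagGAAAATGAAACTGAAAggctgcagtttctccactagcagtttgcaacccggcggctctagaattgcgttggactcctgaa
Ifit1, chr19:34640729-34640838, plus strand, from -160 to -51: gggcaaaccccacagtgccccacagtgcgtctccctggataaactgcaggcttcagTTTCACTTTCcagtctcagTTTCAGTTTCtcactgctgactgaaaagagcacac
Ifit3, chr19:34583369-34583478, plus strand, from -160 to -51: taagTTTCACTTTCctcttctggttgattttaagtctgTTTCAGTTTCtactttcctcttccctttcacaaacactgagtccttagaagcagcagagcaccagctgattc
Ifitm2, chr7:140955992-140956021, minus strand, from -60 to -31: taacccaccaacagGAAAAGGAAAttgcta
Ifitm3, chr7:141010715-141010744, minus strand, from 1 to 30: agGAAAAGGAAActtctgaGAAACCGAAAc
Isg15 held 3 overlapping matches in a single run, Bst2 held 2 that overlap, Ifit1, Ifit3 and Ifitm3 held 2 separate ones and Ifitm2 held 1. The motif TTCNNNGAA, which reads the same on both strands and stands for the gamma-activated site, was present in the promoters of Bst2 and Ifitm3, against 9.55% of all genes with a promoter, and both matches overlap a match of the response element. A match is a run of letters in this window and not a measured binding site.

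The genes lie in a few places of the genome. In the GENCODE annotation of GRCm38, Ifitm2 (chr7:140954837-140955987), Ifitm3 (chr7:141009586-141010770) and Irf7 (chr7:141262706-141266481) lie on chromosome 7 on the minus strand, and Ifit3 (chr19:34583531-34588731) and Ifit1 (chr19:34640871-34650009) lie on chromosome 19 on the plus strand. The others stand alone on their chromosomes: Ifi27l2a (chr12:103442167-103443680), Bst2 (chr8:71534255-71537456), Isg15 (chr4:156199424-156200818) and Ly6e (chr15:74955051-74959905). Reads of Ifitm2 and Ifitm3, of Ifit3 and its copy Ifit3b, and of Ifi27l2a and its copy Ifi27l2b may be split between near-identical genes, so the division between such copies is uncertain.

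Levels set side by side below come from tables that were processed separately, since raw counts were deposited for sham day 3 and values corrected by sctransform, section by section, for the other 4. Median raw UMIs per spot ran from 20842.5 to 53940, and 897 barcodes occurred in more than 1 section, because Visium barcodes mark fixed positions of a slide. The summed mean level of 6 cardiomyocyte markers was between 22215 and 27715 CPM in every section. The mitochondrial share was 24.7% in MI day 7 replicate 1 and 13.8% to 15.8% in the other 4 sections. Mitochondrial genes count in the total of each spot, so a higher share leaves a smaller part of the CPM for the other genes. In the MI day 3 section 10 spots lay apart from the tissue with 19 to 1184 raw UMIs each, while their corrected totals were between 30931 and 35309. The section means were recomputed without them and without every spot under 50% of its section's median raw UMIs, which left 346 of 376 spots in that section. Ifi27l2a was then 105 CPM in place of 103, Bst2 53.4 in place of 53.9 and Ifit3 5.71 in place of 5.26.

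In the MI day 3 section several of the genes stood above all other sections, while at day 7 the MI sections lay close to sham. At day 3 Ifi27l2a was 14.5 CPM after sham and 103 CPM after MI. At day 7 it was 11.1 CPM in sham and 11.3 and 11.6 CPM in MI replicates 1 and 2. This is the pattern for which the gene was chosen, with MI 7.09-fold above sham at day 3 and the 3 sections of day 7 close to each other.

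Irf7, the regulator, was 2.93 CPM in sham and 9.54 CPM in MI at day 3, and 1.99 CPM in sham with 2.36 and 1.91 CPM in MI at day 7. The MI day 3 section was 3.26-fold above its sham section and above every other section. The ubiquitin-like Isg15 was 4.58 and 10.8 CPM in sham and MI at day 3, and 2.95 CPM in sham with 2.81 and 2.66 CPM in MI at day 7. Here too MI day 3 was the highest section, 2.35-fold above sham.

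Ifit3 and Ifit1 were near the lower limit of detection outside the MI day 3 section. Ifit3 was 0.455 and 5.26 CPM in sham and MI at day 3, and 0.548 CPM in sham with 0.239 and 1.14 CPM in MI at day 7. The 11.6-fold ratio at day 3 sets the MI section against only 5 UMIs over the 544 spots of the sham section, for which an exact Poisson interval of 95% runs from 1.62 to 11.7 UMIs and covers counting error only. Ifit1 was 0.517 and 1.39 CPM at day 3 and 0.164 CPM in MI day 7 replicate 1. It rested on 6, 18 and 6 counts in these 3 tables and entered no test.

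Among the membrane proteins, Bst2 had the largest day 3 difference. It was 13.5 and 53.9 CPM in sham and MI at day 3, a 4.0-fold ratio, and 12.9 CPM in sham with 18.3 and 14.0 CPM in MI at day 7. At day 7 both MI sections were above the sham section, though by little. Ifitm3 was 108 and 214 CPM at day 3, and 129 CPM in sham with 114 and 157 CPM in MI at day 7, so that the MI sections of day 7 lay on both sides of sham. Ifitm2 was 136 and 172 CPM at day 3, and 142 CPM in sham with 127 and 175 CPM in MI at day 7. Ly6e was 101 and 112 CPM at day 3, and 139 CPM in sham with 126 and 131 CPM in MI at day 7, the reverse order of MI and sham at the 2 days. For Ifitm2 and Ly6e the MI day 3 section was not the highest section.

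**Figure D1:**
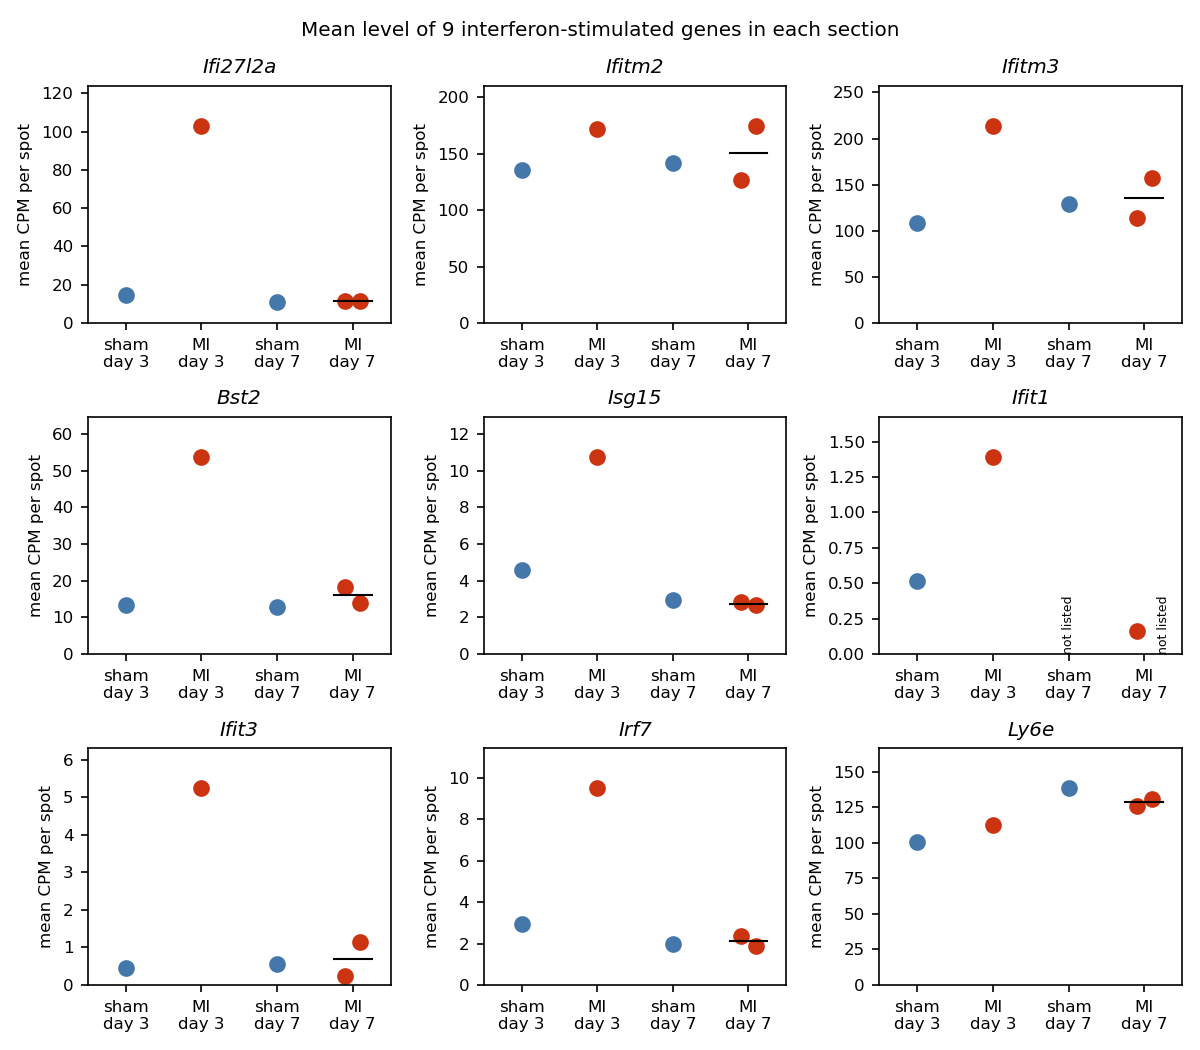
Mean CPM over the spots of each section for the 9 genes, with blue points for sham and red points for MI sections, 1 point per section and a line at the mean of the 2 MI day 7 sections. The MI day 3 section is the highest for 7 of the 9 genes, Ifit1 among its 3 listed sections, and for Ifitm2 and Ly6e it is not.

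The same genes were also found in more spots of the MI day 3 section. Ifi27l2a was above 0 in 73.9% of its spots, against 24.8% in sham day 3, 20.5% in sham day 7 and 40.8% and 17.7% in the MI sections of day 7. Bst2 was above 0 in 77.7% of the spots of MI day 3 and in 24.1% to 61.3% elsewhere, the higher end being MI day 7 replicate 1, whose raw depth was the highest. For Isg15 the share was 23.4% in MI day 3 and 5.18% to 13.3% in the other sections, and for Irf7 it was 23.1% and 3.67% to 12.0%. These shares follow depth as well as level, and they are shares of spots, not of cells.

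At day 3, where each group is 1 section, the difference was not tested on its own. On the log2(CPM + 1) scale, on which changes of low genes are understated, the difference of MI from sham at day 3 was 2.74 for Ifi27l2a, 2.1 for Ifit3, 1.92 for Bst2, 1.42 for Irf7, 1.08 for Isg15, 0.97 for Ifitm3, 0.34 for Ifitm2 and 0.16 for Ly6e. Of the 8 genes that passed a minimum of 1 CPM in at least 2 sections, 5 were higher in MI by 1 or more, and 4 of 7 without Ifi27l2a. Of all 12933 genes, 3.51% were higher by that much, and 67 genes were lower by 1 or more. Ifit3 passed the CPM minimum only through the MI day 3 section and MI day 7 replicate 2. Without Ifi27l2a the median difference was 1.08 over 7 genes, and without Ifit3 as well it was 1.03 over 6, against 0.03 over all genes. The MI day 3 section was the highest of the 5 for 6 of the 8, but it was so for 42.2% of all genes.

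Marker levels of some other cells were also higher after MI at day 3, and those of others were not. The sum of 6 endothelial markers was 792 and 710 CPM in sham and MI at day 3, and that of 4 mural markers 305 and 270 CPM. The sum of 4 endocardial markers was 58.5 and 69.2 CPM. The sum of 6 fibroblast markers was 3660 and 4699 CPM at day 3, and 3869 CPM in sham with 4428 and 5943 CPM in MI at day 7. The summed level of 8 macrophage markers was 123 CPM in sham and 1025 CPM in MI at day 3, and 130 CPM in sham with 200.0 and 297 CPM in MI at day 7, none of the markers was at 0, and all 8 differed by at least 1 log2 unit at day 3. The sum of 3 neutrophil markers was 26.0 and 83.6 CPM at day 3 and between 8.65 and 34.3 CPM at day 7. The sum of 5 blood markers was 4411 and 11384 CPM at day 3 and between 6901 and 10746 CPM at day 7. Of 4 markers of plasmacytoid dendritic cells, known as makers of type I interferon, 2 were listed in all tables, and at day 3 their log2 differences went apart, at -0.09 and 0.75. The sum of 2 epicardial markers was 15.5 and 27.6 CPM at day 3, and 11.7 CPM in sham with 12.9 and 19.8 CPM in MI at day 7. One of them, Msln, differed by 1.76 at day 3 and by 1.86 at day 7 (adjusted p = 0.0227 in limma), while Wt1 was at 0.10 and 0.07. The part of these cells in the differences of the interferon-stimulated genes was not tested, and in such spots more cells of a type cannot be told apart from more RNA per cell.

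Across both days, with the day as a term in a limma fit, MI was compared with sham to ask for a shared effect of infarction. None of the 7 tested genes passed an adjusted p of 0.05, against 0.00773% of all genes called. An unadjusted p under 0.05 was reached by 1 of the 7 and by 8.1% of all genes. The nearest was Bst2, with a log2 difference of 0.99 ± 0.34 (SE, adjusted p = 0.535). Ifit3 (0.94 ± 0.48), Irf7 (0.65 ± 0.31), Ifitm3 (0.44 ± 0.23) and Isg15 (0.41 ± 0.27) also had values above 0, and Ly6e was at 0.00 ± 0.12. The p-values measure the spread between these sections, which rested on 2 residual degrees of freedom.

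At day 7 alone, where the spread came only from the 2 MI sections, limma called none of the 7 genes, against 0.232% of all genes called. None of the 7 had an unadjusted p under 0.05, as 4.11% of all genes did. The largest day 7 value was that of Bst2, 0.29 ± 0.23. Irf7 (0.06 ± 0.27), Ifitm2 (0.07 ± 0.25), Ifitm3 (0.05 ± 0.25) and Ifit3 (0.07 ± 0.37) lay within 1 SE of 0, as did Isg15 (-0.08 ± 0.25) and Ly6e (-0.11 ± 0.23).

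The dependence of the MI difference on the day was tested for the 7 genes other than Ifi27l2a. They too were listed with earlier results of these data known. The difference of MI from sham was larger at day 3 than at day 7 for Bst2, by 1.63 ± 0.35 on the log2 scale with an adjusted p of 0.0464 in limma, and this was the 1 call among 7 genes, against 0.363% of all genes called higher. An unadjusted p under 0.05 was reached by 5 of the 7 and by 5.44% of all genes. One of the 5 was Ifit3, which passed the CPM minimum only through MI sections, and without it the count was 4 of 6. The other 3 groups are 1 section each, so both MI day 7 sections alone supply the spread, on 1 residual degree of freedom, and all groups are assumed to vary like these. The mitochondrial share was 24.7% in replicate 1 and 15.5% in replicate 2. Ifit3 had 2.03 ± 0.56 (adjusted p = 0.185), Irf7 1.36 ± 0.41 (adjusted p = 0.278), Isg15 1.16 ± 0.39 (adjusted p = 0.398) and Ifitm3 0.93 ± 0.38 (adjusted p = 0.734). Ifitm2 (0.28 ± 0.39) and Ly6e (0.27 ± 0.35) were within 1 SE of 0, and Ifi27l2a had a value of 2.71. The Bst2 call was lost with median-of-ratios scaling (adjusted p = 0.511), without mitochondrial and haemoglobin genes (adjusted p = 0.592) and without 19 spots of the MI day 3 section described below (adjusted p = 0.0812). With either of the first 2 settings 0 genes were called over the whole table, against 47 higher and 8 lower here. The Bst2 value itself stayed between 1.44 and 1.81 over all settings. Of the 8 macrophage markers, 4 were called in the same comparison.

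Between the days, over MI and sham together, limma called none of the 7 genes, against 0.595% of all genes called, 32 higher and 45 lower at day 7, which became 127 and 58 with median-of-ratios scaling. An unadjusted p under 0.05 was reached by 4 of the 7 and by 25.1% of all genes. Isg15 was lower at day 7 by -1.16 ± 0.27 (adjusted p = 0.102), Irf7 by -1.17 ± 0.31 (adjusted p = 0.116) and Bst2 by -0.99 ± 0.34 (adjusted p = 0.155), against a median of -0.18 over all genes. Ly6e went the other way, at 0.31 ± 0.12 (adjusted p = 0.178). Without one or the other sham section, this term sets the single MI day 3 section against the 2 of MI day 7, which alone supply the spread, and 5.82% and 5.89% of all genes were called. In both cases Bst2 (-1.69), Irf7 (-1.75) and Isg15 (-1.66) passed. Ifit3 (-1.94) did too, but it had entered the fit only through MI sections, MI day 3 among them.

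Within the MI day 3 section the genes were clustered in space. Moran's I, which is near 0 where neighbouring spots are unrelated and rises as like values cluster, was 0.597 for Ifi27l2a, above 99.4% of the genes with at least 1 CPM. It was 0.366 for Bst2, 0.341 for Ifitm3, 0.297 for Ifit1, 0.296 for Ifit3, 0.291 for Irf7, 0.270 for Ly6e and 0.184 for both Ifitm2 and Isg15, against a median of 0.0249 over genes in that section. The 95th percentile over genes was 0.296 in this section but 0.0695 in sham day 3 and 0.0613 in sham day 7, so values are best read within a section. Isg15 and Ifitm2 stood above 91.4% of genes in MI day 3. In the sham sections the values of the members ran from -0.0298 to 0.0491, the highest being Ifitm3 in sham day 7, above 92.8% of the genes there. In MI day 7 replicate 2 Ifitm3 reached 0.386 and Ifitm2 0.262. These were the highest values of any member outside the MI day 3 section.

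A small patch was found by searching for the spot richest in 3 of the genes. The spot with the highest summed CPM of Isg15, Ifit3 and Irf7 in the MI day 3 section carried corrected values of 23 for Isg15, 10 for Ifit3, 8 for Irf7, 3 for Ifit1, 15 for Bst2, 32 for Ifi27l2a, 44 for Ly6e and 79 for Ifitm3. Its highest cell type score was that of fibroblasts (FB), and it touched a spot whose highest score was that of macrophages. With its 6 neighbours it made up 1.86% of the spots, and these 7 spots held 32.4% of the summed value of Ifit3, 26.2% of Isg15 and 16% of Irf7, the genes by which the spot was picked. Of the genes not used to pick it, they held 44.4% of Ifit1 (8 of 18), 11.3% of Ifi27l2a, 7.83% of Bst2, 6.61% of Ly6e, 6.53% of Ifitm3 and 2.63% of Ifitm2. Because of that choice the shares of the first 3 genes cannot be compared with those of the others.

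The first 2 rings around this spot made 19 spots, 5.05% of the section, with 55.6% of Ifit1, 47.1% of Ifit3, 33.3% of Isg15 and 22.4% of Irf7. By highest score, 7 of them were FB, 6 CM4, 3 CM1, 2 macrophage and 1 endothelial, CM1 and CM4 being cardiomyocyte states named by the study. Without these spots the day 3 difference fell from 1.08 to 0.60 for Isg15 and from 2.1 to 1.42 for Ifit3 on the log2 scale. The values without them were 1.15 for Irf7, 1.80 for Bst2, 2.51 for Ifi27l2a and 0.87 for Ifitm3. The spots were taken out of the MI section alone and around the spot richest in Isg15, Ifit3 and Irf7, so the falls of these genes follow from the choice.

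**Figure D2:**
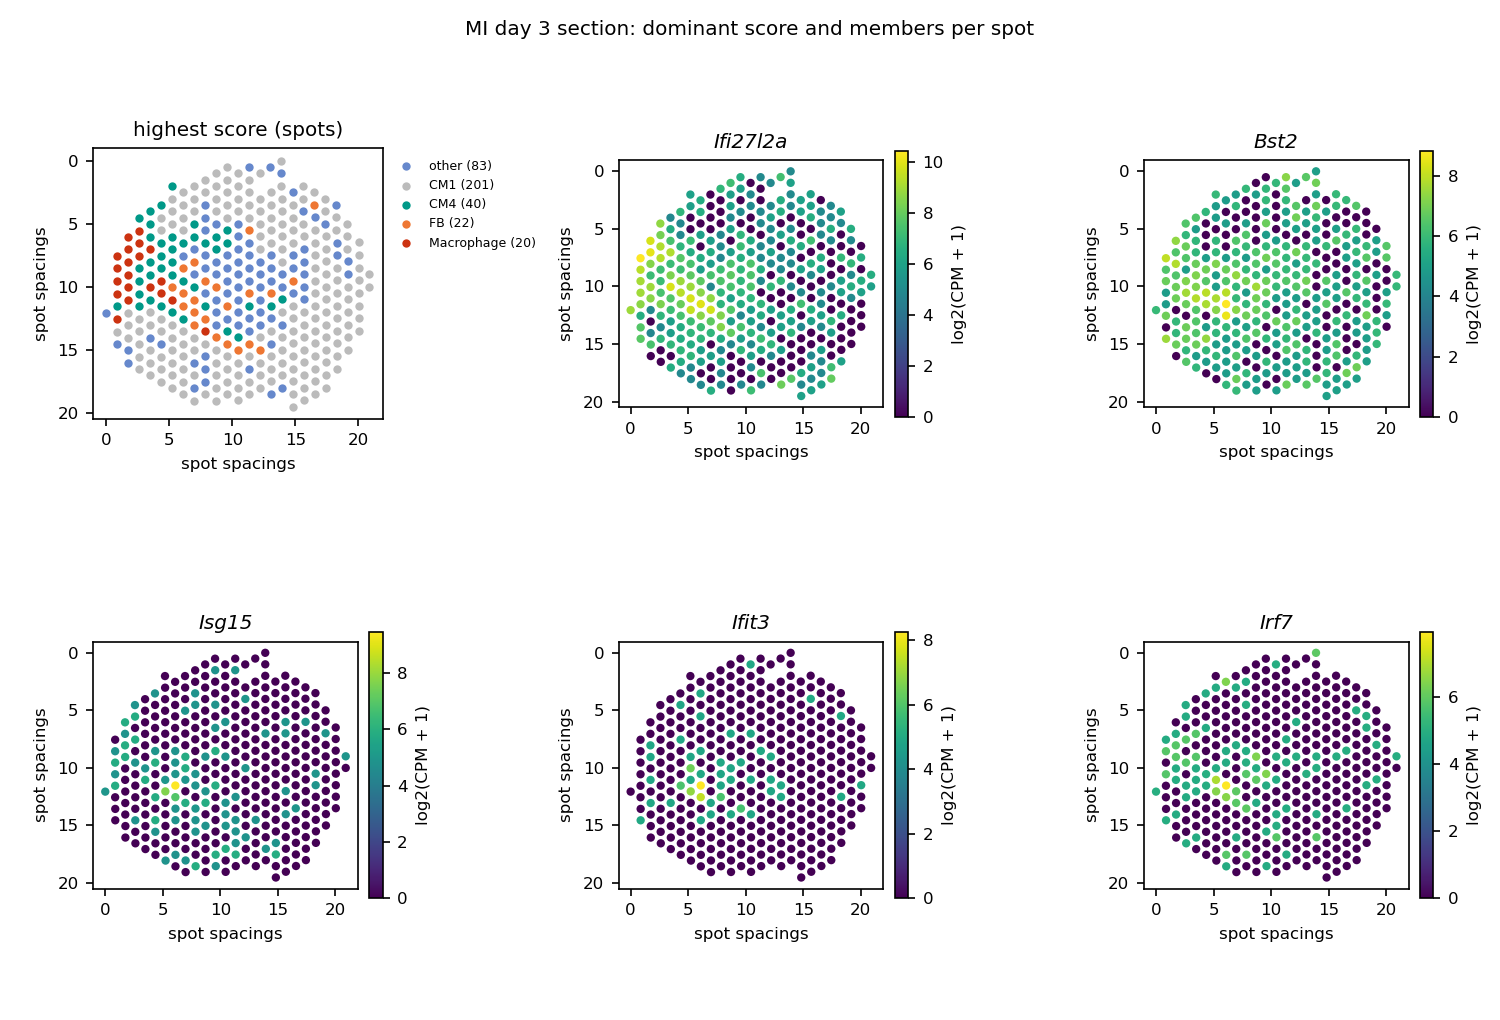
Spots of the largest connected piece of the MI day 3 section, drawn in units of the spacing between neighbouring spots, coloured by highest cell type score in the first panel and by log2(CPM + 1) of 5 genes in the others, with the 10 spots apart from the tissue not drawn. Ifi27l2a and Bst2 are high over the left side, where the macrophage-dominant spots lie, and Isg15, Ifit3 and Irf7 peak in a few adjoining spots.

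The levels were then followed with distance from the macrophage-dominant spots, those whose highest score was macrophage. Ifi27l2a fell with each step, from 587 CPM in the 20 macrophage-dominant spots to 260 CPM in the 30 spots of the first ring, 141 CPM in the 29 of the second, 73.6 CPM in the 57 of the next 2 rings and 45.8 CPM in the 240 farther away. Bst2 followed the same order with a smaller range, at 120, 97.9, 72.9, 53.9 and 40.6 CPM. Ifitm3 ran from 480 and 365 CPM down to 223, 179 and 180 CPM. In this section these 3 genes were highest in the macrophage-dominant spots themselves.

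The MI sections of day 7 differed from each other in this respect. In replicate 2 Ifitm3 was 528 CPM in the 13 macrophage-dominant spots and 128 CPM in the farthest, Ifitm2 was 411 and 151 CPM, and Bst2 was 56.0 and 12.8 CPM. In replicate 1 the same genes were nearly level, with Ifitm3 at 128 and 122 CPM, Ifitm2 at 136 and 131 CPM and Bst2 at 21.2 and 18.3 CPM.

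In MI day 3, Isg15, Ifit3 and Ifit1 were instead highest in the first ring. Isg15 was 28.2 CPM in macrophage-dominant spots, 43.2 CPM in the first ring and 5.0 CPM in the farthest spots. Ifit3 was 5.75, 27.4 and 1.69 CPM, and Ifit1 was 3.01, 7.78 and 0.599 CPM in the same places. Irf7 was highest in the macrophage-dominant spots and did not fall at every step, at 35.7, 24.2, 10.97, 13.4 and 4.45 CPM from the nearest to the farthest. Spots of 1 section are not replicates, the first ring holds the centre of the patch, and no test was made.

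**Figure D3:**
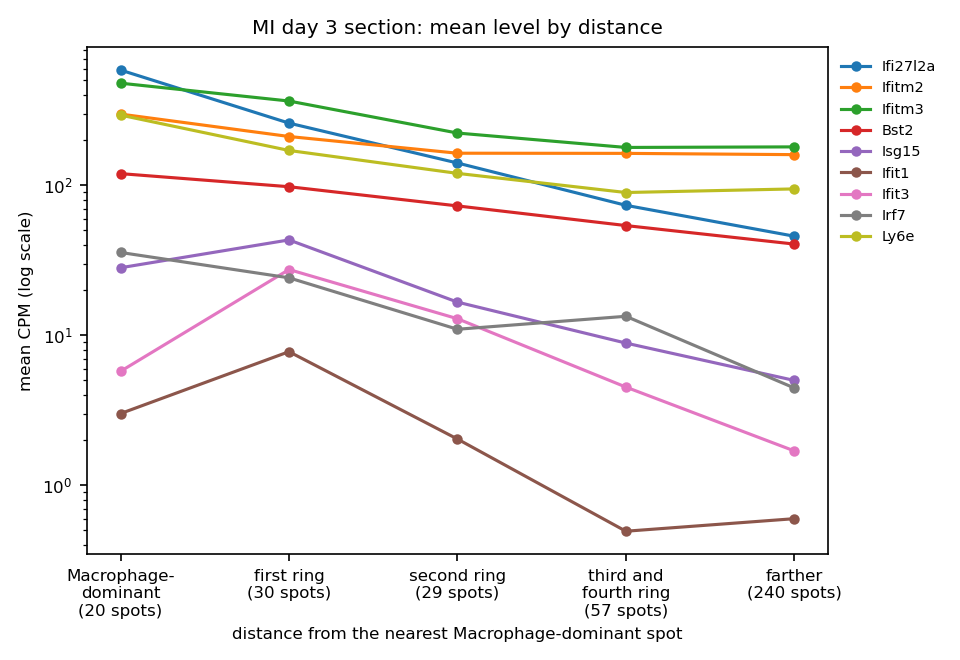
Mean CPM (log axis) of the 9 genes in the MI day 3 section by distance from the nearest macrophage-dominant spot, with the number of spots under each step. Ifi27l2a declines from 587 to 45.8 CPM, while Isg15, Ifit3 and Ifit1 peak in the first ring.

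Spots with no macrophage or fibroblast score gave a second view of the day 3 difference. In CM1-dominant spots whose macrophage and FB scores were both 0, numbering 130 to 303 per section, Bst2 was 10.9 CPM in sham and 37.1 CPM in MI at day 3, and 10.4 CPM in sham with 13.9 and 12.2 CPM in MI at day 7. Ifi27l2a was 13.4 and 34.7 CPM at day 3 and between 5.86 and 6.44 CPM in the 3 sections of day 7. Ifitm3 was 93.2 and 161 CPM at day 3 and between 90.3 and 119 CPM at day 7. Ifitm2 was 94.3 and 134 CPM at day 3 and between 93.9 and 127 CPM at day 7. For these 4 genes the MI day 3 section was the highest. Isolated or shallow spots were not removed here, and without them 187 of all 211 CM1-dominant spots of MI day 3 remain. Over these, Ifitm2 fell from 142 to 135 CPM, below the 137 CPM of MI day 7 replicate 2. Ifi27l2a (45.9 to 41.2 CPM), Bst2 (37.6 to 35.6 CPM) and Ifitm3 (167 to 162 CPM) stayed highest in MI day 3.

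The other members gave mixed values in these spots. Isg15 was 6.88 CPM in sham and 5.96 CPM in MI at day 3, and Irf7 was 3.94 and 4.67 CPM. Ly6e was 92.0 and 99.1 CPM, Ifit3 was 0.317 and 1.09 CPM, and Ifit1 was 1.28 and 0.427 CPM, both on few counts. In these spots Isg15 was thus lower after MI than after sham, and Irf7 differed by less than it did over all spots. A score of 0 is an estimate from the expression values themselves and does not show that such cells were absent.

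**Figure D4:**
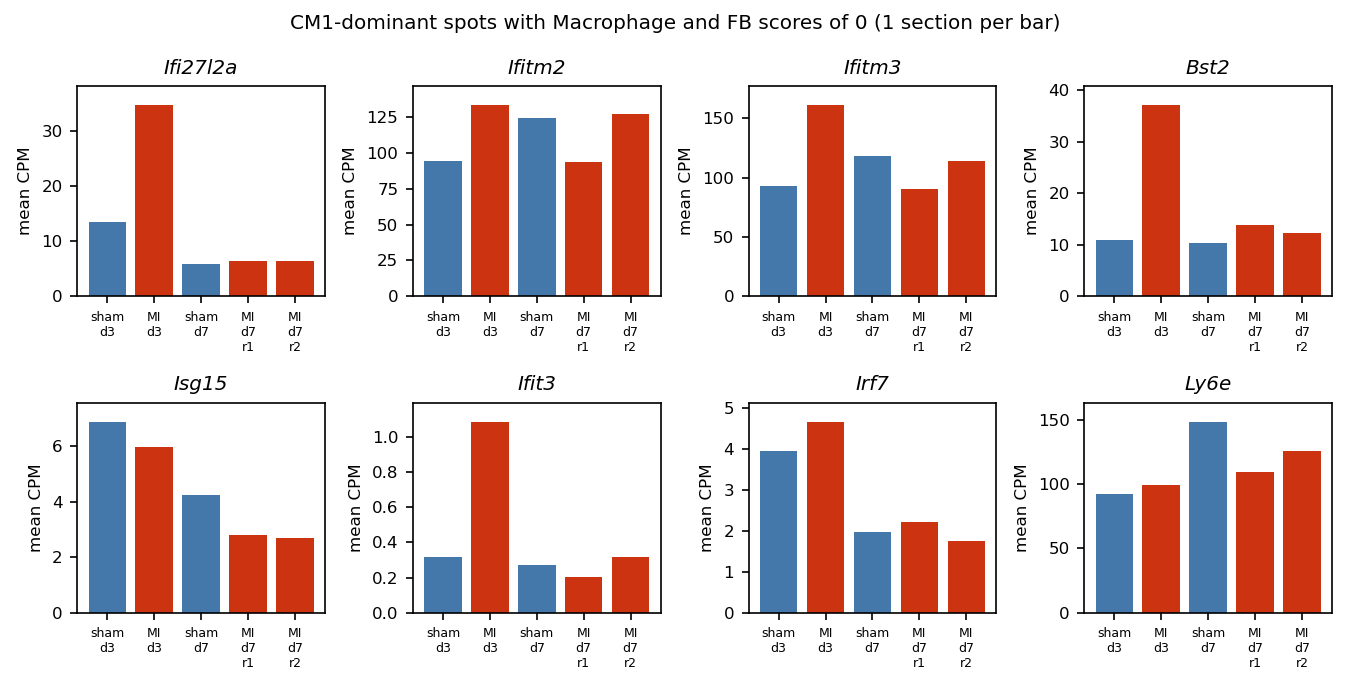
Mean CPM in CM1-dominant spots with macrophage and FB scores of 0, 1 bar per section, blue for sham and red for MI, with axes from 0. Bst2 at day 3 is 10.9 CPM in sham and 37.1 CPM in MI, while Isg15 is 6.88 and 5.96 CPM.

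The genes were then compared between kinds of spots, each against CM1-dominant spots of the same section, with the section as a block in limma. Because the scores come from the expression values themselves, marker genes of a type differ by construction. FB-dominant spots had the most calls, with 5 of 8 genes higher, against 23.5% of all genes higher. They were Ifi27l2a (1.03 ± 0.21, adjusted p = 0.00192), Ifitm2 (0.72 ± 0.09, adjusted p = 3.99e-05), Ifitm3 (0.59 ± 0.13, adjusted p = 0.00277), Bst2 (0.52 ± 0.16, adjusted p = 0.0254) and Ifit3 (1.12 ± 0.39, adjusted p = 0.0464). The median over all genes was 0.18. Ifit3 was 28.2 CPM in FB-dominant against 1.502 CPM in CM1-dominant spots of MI day 3. Outside that section, among FB- and CM1-dominant spots, it exceeded 1 CPM only in the FB-dominant spots of MI day 7 replicate 2, at 1.59 CPM. Ifit3 also exceeded 1 CPM in other classes, such as EC-dominant spots of that replicate (6.41 CPM) and macrophage-dominant spots of sham day 3 (1.74 CPM). Its call held without sham day 3 and was lost without any 1 of the 3 day 7 sections (adjusted p up to 0.0772), and without MI day 3 it did not pass the CPM minimum. Without Ifit3 the count was 4 of 7. In the same comparison fibroblast markers rose in 6 of 6, endocardial markers in 4 of 4, macrophage markers in 7 of 8, mural markers in 3 of 4, neutrophil markers in 2 of 3 and plasmacytoid dendritic cell markers in 2 of 2, Irf8 and Tcf4. The part of these cells in the calls was not tested.

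The size of this difference varied between sections. In FB-dominant against CM1-dominant spots Ifi27l2a was 218 against 45.9 CPM in MI day 3, 18.8 against 8.03 CPM and 13.4 against 7.76 CPM in MI day 7, 14.4 against 7.38 CPM in sham day 7 and 14.7 against 12.6 CPM in sham day 3, where 122 spots were FB-dominant. All 5 sections had the same direction. Ifitm2 was likewise higher in FB-dominant spots of every section, from 160 against 105 CPM in sham day 3 to 292 against 137 CPM in MI day 7 replicate 2. Without the MI day 3 section 3 of the 7 genes then tested were called, and without MI day 7 replicate 1 it was 3 of 8, in both cases Ifi27l2a, Ifitm2 and Ifitm3. With median-of-ratios scaling only Ifi27l2a and Ifitm2 were called, and the calls over all genes went from 3154 higher and 458 lower to 1446 and 1517.

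Endothelial (EC) spots had 3 of 8 genes higher, against 2.29% of all genes. These were Ifitm3 (0.45 ± 0.07, adjusted p = 0.000457), Ifitm2 (0.35 ± 0.08, adjusted p = 0.0125) and Bst2 (0.60 ± 0.16, adjusted p = 0.0445), all membrane proteins. Mural markers rose in 3 of 4, with values up to 1.46, as did 1 of 2 plasmacytoid dendritic cell markers (Tcf4) and 1 of 8 macrophage markers. Bst2 in EC-dominant spots was 22.8 CPM in sham day 3 and 24.3 CPM in sham day 7, against 11.1 and 10.9 CPM in CM1-dominant spots. In MI day 3 it was 59.8 against 37.6 CPM, but in MI day 7 replicate 2 only 12.3 against 11.7 CPM. Ifitm3 was called whichever section was left out, while Bst2 was lost in 4 of these 5 fits, all but the one without MI day 7 replicate 2, and Ifitm2 in 3, those without sham day 3, MI day 3 or MI day 7 replicate 2. With median-of-ratios scaling only Ifitm3 was called, and the calls over all genes went from 305 higher and 15 lower to 58 and 110.

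Endocardial (EndoEC) spots had 2 of 8 genes higher, against 9.63% of all genes. They were Ifitm2 (0.60 ± 0.08, adjusted p = 7.93e-07) and Ifi27l2a (0.62 ± 0.17, adjusted p = 0.0116). Beside them fibroblast markers rose in 6 of 6, macrophage markers in 3 of 8 and blood markers in 3 of 5. Ifitm2 in EndoEC-dominant spots lay between 153 and 228 CPM in the 5 sections, against 104 to 142 CPM in CM1-dominant spots. Without MI day 3 only Ifitm2 was called, and Ifi27l2a had an adjusted p of 0.138. With median-of-ratios scaling both calls held and Ly6e was called lower, while the calls over all genes went from 1283 higher and 334 lower to 748 and 835.

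Macrophage-dominant spots had no call among the 8 genes in limma, against 0.173% of all genes called. An unadjusted p under 0.05 was reached by 4 of the 8 and by 14.9% of all genes. Ifi27l2a was higher than in CM1-dominant spots in all 5 sections, by very different amounts, from 587 against 45.9 CPM in MI day 3 and 23.7 against 7.76 CPM in MI day 7 replicate 2 down to 8.75 against 8.03 CPM in MI day 7 replicate 1. Over the sections its difference was 1.44 ± 0.41 (adjusted p = 0.184). For Bst2 the sections went different ways, with 120 against 37.6 CPM in MI day 3 and 7.70 against 11.1 CPM in sham day 3.

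CM4-dominant spots had no call in limma either, against 1.15% of all genes called, and 4 of the 8 had an unadjusted p under 0.05, as did 11.6% of all genes. The calls over all genes there, 145 higher and 8 lower, became 119 and 55 with median-of-ratios scaling. The values nearest to the threshold were those of Ifitm2 (0.33 ± 0.09, adjusted p = 0.0656) and Ifi27l2a (0.67 ± 0.21, adjusted p = 0.14). In MI day 3 the CM4-dominant spots had 158 CPM of Ifi27l2a and 77.3 CPM of Bst2, and in the 4 other sections between 10.7 and 14.3 CPM and between 12.7 and 19.7 CPM. Spots at the edge of the sections compared with interior spots gave no call among the 8 in limma, against 4.79% of all genes called, and 3 of the 8 had an unadjusted p under 0.05, as did 25.1% of all genes. The calls over all genes there, 98 higher and 539 lower, became 177 and 51 with median-of-ratios scaling, where 1 of the 8, Ly6e, was called higher.

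**Figure D5:**
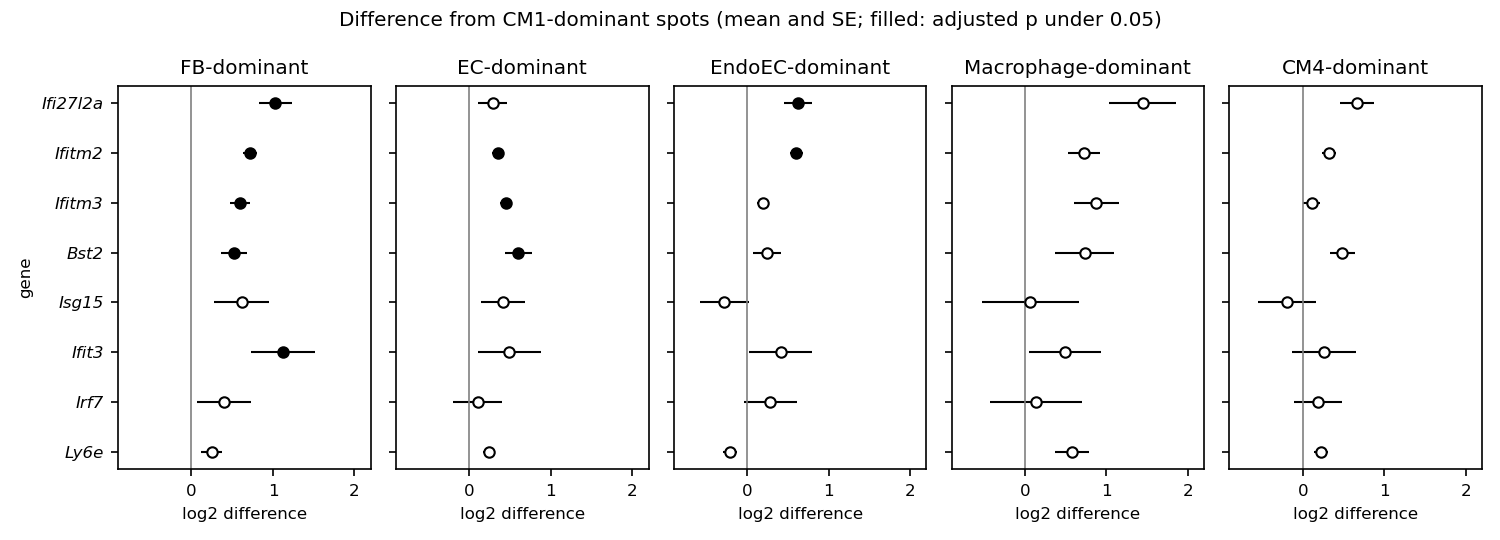
Log2 difference from CM1-dominant spots for 8 genes in 5 kinds of spots, with the SE of the limma fit over sections as bars and filled points for an adjusted p under 0.05. The FB-dominant panel has 5 filled points, EC 3 and EndoEC 2, and the macrophage and CM4 panels have none.

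The genes also varied together in the MI day 3 section more than elsewhere. Over the 28 pairs of the 8 genes, the median Spearman correlation across its 376 spots was 0.226, against 0.0127 to 0.0353 in the other 4 sections. Spots of a section share library and depth correction, and many pairs include genes that are 0 in most spots. Across the 376 spots Ifi27l2a had a correlation of 0.564 with the macrophage score and 0.388 with the FB score, and Bst2 had 0.294 and 0.203.

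The genes most like Ifi27l2a were sought by their correlation with it across the spots of each section. Of 5029 genes with at least 20 CPM in every section, the highest mean correlation over the 5 sections was that of Ftl1, ferritin light chain, with 0.204, followed by S100a6 (0.193), the collagen gene Col3a1 (0.193), Sparc (0.187), Lum (0.187), Col1a2 (0.186), Fn1 (0.185), the ribosomal gene Rps19 (0.185), Fbn1 (0.184) and Fstl1 (0.182). In MI day 3 alone these 10 had correlations between 0.458 and 0.585. For Ftl1 the 4 other sections had 0.0542 to 0.180, with both sham sections lowest, and a mean of 0.109, and only 4 of the 10 genes stayed among the first 10 without MI day 3. For Bst2 the list was headed by Col3a1 (0.137), Rpl21 (0.130) and Myl6 (0.129), followed by Tmsb4x, Rps20, Bgn, Ctsl, Rpl10a, Col1a2 and Rps19 down to 0.120, and 3 genes were on both lists. This ranking rested on MI day 3 as well. Col3a1 had 0.404 there and 0.0329 to 0.120 in the 4 other sections, with a mean of 0.0707, and without MI day 3 only 1 of the 10 genes, Rpl21, stayed among the first 10.

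The wider pathway gave no call between sections. Of 15 receptor and signal transducer genes, 8 sensors of nucleic acids, 6 negative regulators and 39 other interferon-induced genes that passed the filter, limma called none in any of the 4 comparisons of sections that had a test. Unadjusted p-values under 0.05 for MI against sham across days numbered 2, 2, 2 and 14 in these lists, against 8.1% of all genes. At day 3 a log2 difference of 1 or more was reached by 2 of 15, 2 of 8, 1 of 6 and 11 of 39. Of all genes, 3.51% were higher by that much, and the median of the last list was 0.65. In FB-dominant spots, against 23.5% of all genes, limma called 6 of 15, 0 of 10, 3 of 6 and 10 of 39 genes of the lists higher. None of 7 interferon ligand genes, Ifnb1 and Ifng among them, was listed in all 5 tables, so the ligands could not be followed.

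Among receptors and transducers, the transcription factors Irf5 (6.48 against 2.12 CPM) and Irf1 (18.0 against 8.13 CPM) had higher values after MI than after sham at day 3. Of the 4 receptor subunits, Ifngr2 was at 105 against 104 CPM, Ifnar1 at 33.3 against 29.9 CPM, Ifnar2 at 40.6 against 34.2 CPM and Ifngr1 at 56.2 against 44.5 CPM, the last 2 named after their values were seen, and Irf9 was 20.6 against 17.9 CPM. Of the sensors, Ifi204 was 5.29 against 1.45 CPM and Ifih1 4.35 against 1.1 CPM, while Samhd1 (29.6 against 18.0), Ddx58 (9.84 against 6.36), Tmem173 (10.3 against 7.17) and the adaptor Mavs (27.0 against 24.2) differed by less. Of the negative regulators, the phosphatase Ptpn6, which blood cells carry, was 12.2 against 4.45 CPM, and Socs1 (3.90 against 2.33), Socs3 (5.75 against 4.09), Pias1 (19.2 against 15.6), Usp18 (2.23 against 1.88) and Ptpn2 (21.3 against 22.2) differed by less.

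The other interferon-induced genes ranged from strong day 3 differences to none. Iigp1, a GTPase induced by interferon gamma, was 14.1 CPM in MI against 1.79 CPM in sham at day 3, and 1.30 CPM in sham with 2.93 and 1.40 CPM in MI at day 7. Its MI difference was larger at day 3 by 2.02, with an adjusted p of 0.0768. Ifi44 (6.44 against 1.02 CPM) and Slfn2 (10.6 against 2.09 CPM) also had higher values in MI day 3. Ifi35 (19.6 against 18.8 CPM), the RNA editing gene Adar (17.5 against 16.6 CPM) and Ifit2 (7.44 against 7.53 CPM), of the same family as Ifit1 and Ifit3, had nearly equal values.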

How the data were processed

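The authors aligned reads to mm10/GRCm38 with Space Ranger and processed spots in Seurat v3.2, 1 table per section. The deposited table of sham day 3 held raw UMI counts. In the other 4 the deposited values were counts corrected by sctransform, treated as a score because the tool models them near the section's median depth and rounds them, and no count test was used. The deposited metadata gave raw UMI counts per spot, image positions in pixels, and for each of 11 cell types a fraction made by the authors by label transfer from single-nucleus data, called its score here. A spot's class is its highest score, and a class needed at least 10 spots in a section.

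Spots were scaled to CPM over the 13711 shared genes and averaged, and limma 3.58.1 in R 4.3.3 was fitted to log2(mean CPM + 1) over all genes that reached 1 CPM in 2 or more sections or section-class means, with two-sided p-values adjusted by the Benjamini-Hochberg method and a threshold of 0.05. Testing across tables that were processed separately assumes that CPM is comparable between them. The fit was tested on simulated data. Neighbours were the 6 adjoining spots. Named genes are the 9 members, of each pathway list the 3 highest and 3 lowest across days (1 of them is not reported here), and the 10 nearest in correlation. The members and lists were chosen with earlier results of these data known. Alternatives were another scaling, pseudocount and filter, other class limits, and leaving out sections, 19 spots of MI day 3, or isolated and shallow spots, the last 2 chosen after seeing the data.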

Additional observations from a re-analysis of the deposited data

Results flagged for a closer look

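The MI difference of Bst2 on the log2 scale was 1.63 larger at day 3 than at day 7 in limma, a test of the difference between the days itself, with an adjusted p of 0.0464. The call was lost with median-of-ratios scaling (adjusted p = 0.511), without mitochondrial and haemoglobin genes (0.592) and without 19 spots of MI day 3 (0.0812). The genes of the list, Bst2 among them, were chosen with earlier results of these data known. Bst2 was 4.0-fold higher in MI than in sham at day 3 and 1.251-fold higher at day 7 as the mean of 2 MI sections. The spread behind the test came from those 2 sections alone, and without either of them the value was between 1.46 and 1.81 and could not be tested, since no spread within a group was left.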

How the results depend on the processing

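No paired analysis was possible because only the MI day 7 group had more than 1 section, so the groups share fewer than 2 replicate numbers. The limits are those of 1 section per group at day 3, of 4 corrected tables and 1 raw table, and of low counts for Ifit1 and Ifit3. In the fits of sections Ifit3 passed the CPM minimum only through MI sections. Counts below that include Ifit3 rest in part on this, among them those across days without sham day 7 and with a pseudocount of 5. In the counts of genes called, leaving out 1 section gave 0 to 3 across days (3 without sham day 7, with 2.84% of all genes called), 0 to 4 for day 7 against day 3 (4 without either sham section, with 5.82% and 5.89% of all genes called), 3 to 5 in FB-dominant spots, 1 to 2 in EC-dominant, 1 to 2 in EndoEC-dominant and 0 to 1 in CM4-dominant spots. It gave 0 at day 7, in macrophage-dominant and in edge spots. The genes that differed by 1 log2 unit at day 3, which was not tested, numbered 4 to 5, and 2 with a pseudocount of 5. With median-of-ratios scaling 0 genes were called for the difference between the days, 2 in FB-dominant, 1 in EC-dominant and 1 in edge spots. Without mitochondrial and haemoglobin genes these were 0 for the difference between the days, 3 in FB-dominant, 1 in EC-dominant and 1 in CM4-dominant spots. A pseudocount of 5 gave 3 for the difference between the days (Bst2, Ifit3 and Irf7), and CPM of summed values gave 2. Without the 19 spots this number was 0, and without isolated or shallow spots it was 2 (Bst2 and Irf7), with Ifit3 then under the filter. The causes were not tested.

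The values below changed sign, and none of them passed the threshold. Across days Ly6e was -0.0085 with median-of-ratios scaling, -0.040 without the 19 spots and -0.11 to 0.16 without 1 section, and Isg15 was -0.083 to 1.08 without 1 section. At day 7 Ifitm3 was -0.00093 without isolated or shallow spots, and without 1 section Ifitm2 was -0.17 to 0.30, Ifitm3 -0.18 to 0.28 and Irf7 -0.043 to 0.17. For day 7 against day 3 Ifitm2 was 0.10 with median-of-ratios scaling and -0.21 to 0.067 without 1 section, and Ifitm3 was -0.68 to 0.25. Without 1 section Irf7 was -0.097 to 0.63 in FB-dominant, -0.094 to 0.19 in EC-dominant, -0.066 to 0.55 in EndoEC-dominant and -0.53 to 0.54 in macrophage-dominant spots. In macrophage-dominant spots Isg15 was -0.036 with median-of-ratios scaling, -0.056 without mitochondrial and haemoglobin genes, -0.071 with at least 20 spots, -0.088 with a score of at least 0.5 and -0.47 to 0.76 without 1 section. In CM4-dominant spots Isg15 was 0.0095 with a pseudocount of 5 and -0.65 to 0.19 without 1 section, Irf7 was -0.063 with a score of at least 0.5 and -0.11 to 0.41 without 1 section, and Ifitm3 was -0.018 with that score. In edge spots without 1 section Ifi27l2a was -0.054 to 0.42 and Ifitm2 -0.043 to 0.096.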

Other observations

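Spots whose highest score was epicardial (EPI) carried high levels of the membrane genes in MI day 7 replicate 2. In its 15 EPI-dominant spots Ifitm3 was 973 CPM, Ifitm2 567 CPM, Ly6e 359 CPM and Ifi27l2a 137 CPM, against 117, 137, 124 and 7.76 CPM in its CM1-dominant spots. The 6 such spots of MI day 7 replicate 1 had 285, 243, 145 and 47.6 CPM. Without isolated and shallow spots 11 of the 15 remained, with 925 CPM of Ifitm3 and 127 CPM of Ifi27l2a, while Ifit3 went from 14.5 CPM to 0. These classes held too few spots in most sections for a test.

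The 7 spots at the centre of the MI day 3 patch, 1.86% of the section, also held 26.1% (18 of 69) of the summed value of the sensor gene Ifi204. They held 20.7% (6 of 29) of Usp18, 20% (4 of 20) of Oasl1, 19.1% (18 of 94) of Rsad2 and 16.2% (12 of 74) of Ifi47. Of other interferon-induced genes they held less, such as 3.05% of Trim25, 2.61% of Gbp7 and 0.34% of Uba7. They held 7.63% of the macrophage marker Lyz2, 5.38% of Csf1r, 4.17% of Col1a1 and 1.41% of Ifi27. These genes were named after their values were seen. Genes other than the members were also counted by motif in a RefSeq promoter. Of 347 genes with the response element motif, 29 (8.36%) were at least 1 log2 unit higher in MI than in sham at day 3. Another 3 were that much lower. Of 9750 without it, 297 (3.05%) were higher and 41 lower. For the gamma-activated site, 42 of 817 genes with the motif (5.14%) were higher by that much and 2 lower. Without it, 284 of 9280 (3.06%) were higher and 42 lower.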
